A study of Drosophila melanogaster with 40 samples.

Results

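The comparison described here sets young flies whose insulin-producing cells had been ablated against young wild-type flies, in the first hour after a heat shock. Its 6 libraries, of 40 in the series, were taken by genotype, age and time label. The hours were limited to 0 and 1 h with the noncoding transcripts of the series known, since the later ablated libraries differ from these in that profile (values below). They comprise 2 insulin ablated climber libraries (0 h and 1 h after heat shock) and 4 wildtype libraries, a climber and a non-climber library at each of the same hours. Each library was made from RNA of whole Drosophila melanogaster bodies, with a Lexogen kit that primes on the poly(A) tail, so that reads come from transcript 3′ ends. Every fly had been heat-shocked, and climbers and non-climbers had been separated by a negative geotaxis test, which scores whether flies climb upward. The labels give neither the strain, the sex, the age in days, the driver nor the agent of the ablation, nor how many flies were pooled.

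The insulin-producing cells are a small group of brain neurons that secrete the insulin-like peptides Ilp2, Ilp3 and Ilp5 into the circulation. These peptides activate the receptor InR, which through Akt holds the transcription factor FOXO out of the nucleus and keeps growth and egg production high when food is plentiful. When signalling falls, FOXO is known to switch on genes of fasting, InR itself among them, and in females the supply of yolk to the ovary declines. Fat body, gut and muscle are the main target tissues in the adult.

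No condition was replicated. The spread was taken from the 4 wild-type and 2 ablated libraries around a model with terms for hour and genotype, which leaves 3 residual degrees of freedom. The p-values therefore measure differences against the scatter of these libraries, with hours and climbing classes standing in for replicates. The 4 wild-type libraries carry the label batch 1 and both ablated libraries batch 4, so genotype, batch and any difference in strain cannot be told apart. Wild-type libraries held 18647407 to 19253166 counts, and the ablated ones held 30658970 at 0 h and 16394212 at 1 h. In a principal component of 501 noncoding transcripts, which took 36.3% of their variance over the series, the 6 libraries lay between -9.15 and -3.34. The ablated pair, at -9.15 (0 h) and -5.91 (1 h), lay below the 4 wild-type libraries, at -4.39 to -3.34, without overlap. The 22 other wild-type libraries lay between -18.4 and 0.103, and the 12 other ablated ones between 13.3 and 28.1. Levels below are in CPM, which are counts scaled to the library total, here after TMM scaling, and changes are log2 fold changes with their standard error, ablated against wild type. A gene is said to rise or fall where the adjusted p of edgeR's quasi-likelihood test (Benjamini-Hochberg over all genes tested) was under 0.05.

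The ablated cells' own transcripts were examined first. Ilp2, Ilp3 and Ilp5 together had 35 counts in the wild-type 0 h climbers, 19 in the 0 h non-climbers, 33 in the 1 h climbers and 28 in the 1 h non-climbers. No count of any of the 3 genes was found in either ablated library. Their summed level was 1.51 ± 0.399 CPM (SD, n = 4) in wild type. Set against a floor of 3 counts over both ablated libraries, which covers counting error only, the sum was at least 22.6-fold lower after ablation. Taken singly, Ilp2 (FBgn0036046, chromosome 3L, 9799698 to 9800440 in dm6) and Ilp5 were at least 8.85-fold lower and Ilp3 at least 4.92-fold lower. An exact two-sided permutation test of the summed level gave p = 0.067, the smallest value that 15 assignments of the 6 libraries allow. The exact permutation test within hours gave p = 0.11, which again is the smallest possible. In whole-body RNA, fewer cells of a type and less RNA per cell cannot be told apart.

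No fall was called among the other insulin-like peptides. Ilp6, the insulin-like peptide made by the fat body and a known FOXO target, had 39.6 and 31.9 CPM in wild-type climbers and non-climbers at 0 h, and 35.2 and 34.1 at 1 h. The ablated libraries had 80.9 and 92.0 CPM, more than any wild-type library by a wide margin. Its rise was 1.29 ± 0.11 (adjusted p = 1.61e-06, edgeR). Ilp6 (FBgn0044047) lies on chromosome X, 2331493 to 2334658 in dm6. ImpL2, a secreted protein that binds insulin-like peptides and restrains their action, stood at 31.0 and 28.5 CPM in wild type at 0 h and at 48.5 and 52.0 at 1 h. The ablated values were 44.2 at 0 h and 66.9 at 1 h, above both wild-type libraries of the same hour, and the rise was 0.49 ± 0.10. The relaxin-like peptides Ilp7 (0.05 ± 0.48) and Ilp8 (-0.02 ± 0.55) and the secreted decoy receptor Sdr (-0.33 ± 0.29) did not pass. Ilp1 had no count in the 6 libraries and Ilp4 had 1.

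**Figure D1:**
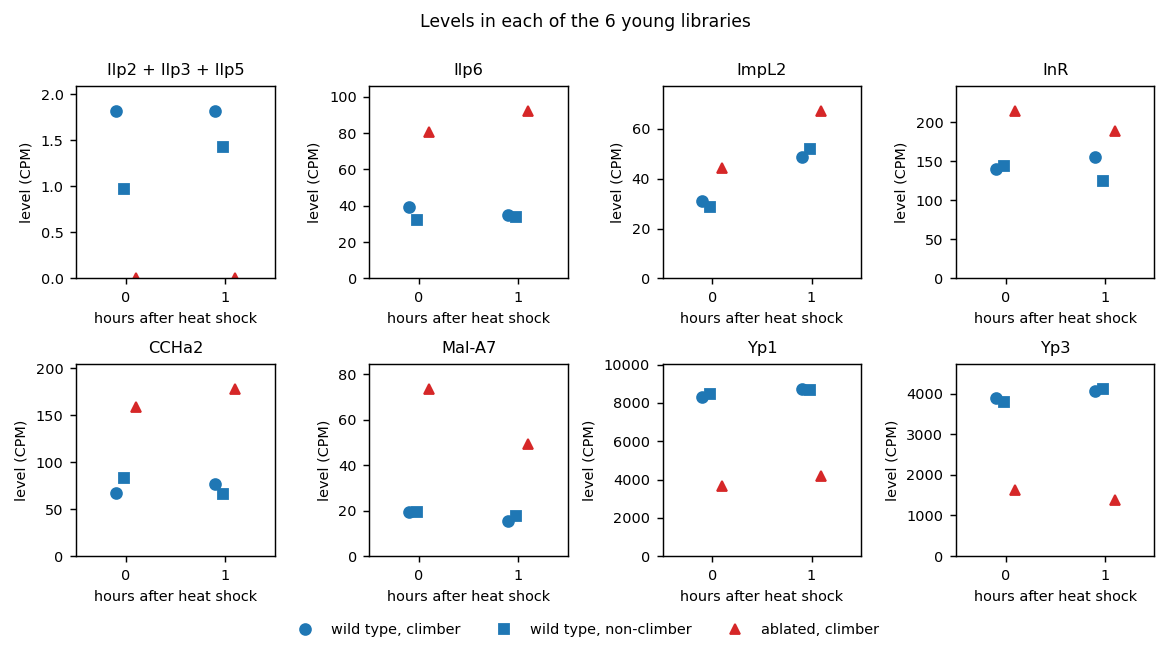
Level in CPM (vertical axes, each from 0) of 8 genes or sums at 0 and 1 h after heat shock (horizontal axes), with 1 point per library: circles are wild-type climbers, squares wild-type non-climbers and triangles ablated climbers. The ablated libraries lie at 0 for the summed peptides of the ablated cells. They lie above all wild-type libraries shown for Ilp6, InR, CCHa2 and Mal-A7, and below all of them for Yp1 and Yp3. For ImpL2 they lie above those of the same hour.

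Of 10294 genes tested, 2871 passed the threshold, which is 27.9%. Of these, 1504 (14.6% of all tested) were higher and 1367 (13.3%) lower in ablated flies, and the median over all tested genes was -0.00. Rises were the larger changes, since 511 genes rose and 114 fell by at least 2-fold, and 103 and 37 did so by at least 4-fold. The median of called genes was 0.80 for rises and -0.44 for falls. In 1498 of the 1504 and 1361 of the 1367, the ablated library lay on the same side of both wild-type libraries at each hour. Over all 10294 genes tested, 2932 lay above in this way and 2939 below. Calls and sides come from the same 6 libraries, so their match is no separate check. Without the ablated 0 h library, the deeper of the pair, 906 genes passed, 492 higher and 414 lower. With so many genes past the threshold, each count for a gene group below should be read against these background shares.

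**Figure D2:**
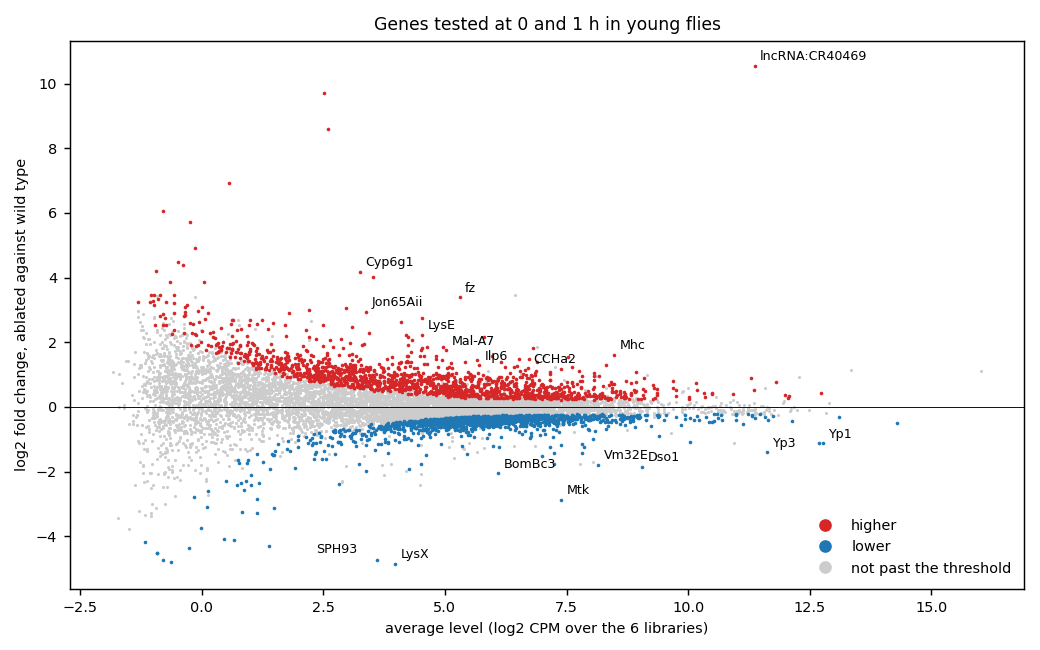
Log2 fold change, ablated against wild type (vertical axis), against average level in log2 CPM over the 6 libraries (horizontal axis) for 10278 of the genes tested, 1 point per gene; 16 genes with no count in one genotype are not drawn. Red points passed the threshold as higher and blue as lower, and labels mark genes named in the text, from lncRNA:CR40469 at 10.56 to LysX at -4.85.

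Within the insulin and TOR signalling list, 6 of 24 tested members rose, 1 fell and the median was 0.16. This share of calls was close to that over all genes. InR, the insulin receptor, had 141, 144, 156 and 125 CPM in the wild-type libraries (0 h climber, 0 h non-climber, 1 h climber, 1 h non-climber, the order kept below). The ablated libraries had 214 at 0 h and 188 at 1 h, above all of these, and the rise was 0.51 ± 0.09. Over the 26 wild-type libraries of the series, with TMM factors over all 40, InR ranged from 117 to 319 CPM. On that scale the 2 early ablated libraries had 206 and 238, inside that range. REPTOR, a transcription factor released when TOR activity is low, rose by 0.46 ± 0.09, and sgg, the fly GSK3 kinase, by 0.45 ± 0.09. The others that rose were melt (1.20 ± 0.34), a modulator of insulin and TOR signals, step (0.25 ± 0.09) and Myc (0.23 ± 0.08), and the adaptor gene dock fell (-0.36 ± 0.11). The RNA of the pathway's core relays was not among those called, with foxo at 0.06 ± 0.10, Akt at 0.12 ± 0.08 and chico, the receptor substrate, at 0.22 ± 0.23. With total-count scaling 4 members rose and 2 fell, and without the ablated 0 h library 1 rose and none fell.

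In the list of FOXO-activated and fasting genes, 7 of 15 tested rose and 1 fell, with a median of 0.36. The list also holds genes controlled by diet, such as tobi and sug, so its counts do not measure FOXO activity alone. Besides Ilp6, InR and ImpL2, these were tobi (0.78 ± 0.18), a glucosidase gene controlled by diet, Pepck2 (0.82 ± 0.19), a gluconeogenic enzyme gene, Lpin (0.36 ± 0.12) and the autophagy gene Atg8a (0.28 ± 0.10). Sugarbabe (sug), a transcription factor of the sugar response, fell by 0.70 ± 0.21 on the log2 scale. Thor, the translation repressor often used as a readout of FOXO, had 163, 178, 233 and 250 CPM in wild type and 202 and 252 after ablation. The ablated values lay above both wild-type libraries of the same hour, by little at 1 h, and the change, 0.15 ± 0.08, did not pass. Only 2 members rose and none fell without the ablated 0 h library.

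Among 18 tested hormones and receptors of the nutrient response, 3 rose and none fell, and the median was 0.27. CCHa2, a nutrient-dependent peptide of fat body and gut that is known to promote insulin secretion in larvae, had 66.7, 82.9, 76.5 and 65.8 CPM in wild type. It had 158 and 178 CPM in ablated flies, with no overlap, and rose by 1.20 ± 0.10 (adjusted p = 2.91e-06, edgeR). AstC, encoding the peptide allatostatin C, rose by 1.12 ± 0.27. AkhR, the fat-body receptor of adipokinetic hormone, rose by 0.91 ± 0.30, whereas the hormone gene Akh itself (-0.03 ± 0.23) did not pass. The AkhR call was lost in 9 of 17 alternative fits, among them those with wild-type climbers alone and without a term for hour. When the ablated 0 h library was left out, 1 gene of this list rose and 1 fell.

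Yolk and several eggshell transcripts were lower in ablated flies. Yp1, Yp2 and Yp3 encode the yolk proteins made by female fat body and follicle cells. Yp1 (FBgn0004045, chromosome X, 10053811 to 10055498 in dm6) had 8290, 8475, 8737 and 8660 CPM in wild type and 3671 and 4183 in ablated flies. Yp3 had 3902, 3798, 4054 and 4116 CPM against 1638 and 1370. The wild-type libraries lay close together and the ablated ones were well below all of them. The falls were -1.12 ± 0.08 for Yp1, -1.12 ± 0.10 for Yp2 and -1.40 ± 0.09 for Yp3. With the spread taken from the 18 heat-shocked young libraries, Yp1 did not pass. All 3 yolk genes kept their call without either ablated library and with wild-type climbers alone.

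Of 18 eggshell genes tested, 8 fell and none rose, with a median of -1.10. Eggshell genes are active in the follicle cells around the oocyte, the vitelline membrane genes earlier than most chorion genes. Vm32E had 478, 287, 344 and 382 CPM in wild type and 98.7 and 117 in ablated flies (-1.79 ± 0.25). Vm26Ac (-1.78 ± 0.17), Cp7Fb (-1.52 ± 0.21), Vml (-1.25 ± 0.12), psd (-1.22 ± 0.15) and Vm26Aa (-1.09 ± 0.11) also fell. Vm32E, Vm26Ac, Cp7Fb, Vml and Vm26Aa did not pass with the spread taken from the 18 heat-shocked young libraries or from all 40. Over the 26 wild-type libraries of the series, with TMM factors over all 40, Vm32E ranged from 1.81 to 510 CPM. On that scale the 2 early ablated libraries had 110 and 128. Of the 8 that fell, Cp7Fb and Cp7Fc (-0.83 ± 0.23) are chorion genes. Other chorion genes varied among the wild-type libraries. Cp36 had 743 CPM in the wild-type 0 h climbers against 187, 251 and 358 in the others, and the ablated values of 387 and 373 lay inside that range. Neither Cp36 (0.02 ± 0.70) nor Cp38 (-0.19 ± 0.64) passed. With wild-type climbers alone as reference 13 eggshell genes fell, and without the ablated 0 h library 4 did.

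Maternal RNAs of the female germline fell in 8 of 25 tested cases and rose in 1, but their median was -0.05. CycB3 (-0.76 ± 0.12), a cyclin of the meiotic divisions, me31B (-0.57 ± 0.08), a repressor of stored mRNAs, png (-0.50 ± 0.11), a kinase of egg activation, and dhd (-0.43 ± 0.08), a thioredoxin of the egg, were lower. yl, the yolk receptor of the oocyte, fell by 0.32 ± 0.09 on the log2 scale, and gus rose (0.26 ± 0.08). The count of falls was 5 without either ablated library. Summed over the 26 members counted, germline RNAs stood at 12200 to 12800 CPM in wild type and at 10000 and 10800 in ablated flies. The summed ratio of ablated to wild type was 0.832 for these RNAs, 0.526 for the eggshell genes and 0.445 for the yolk genes. Of the 26 male reproductive genes counted by the authors, 12 had no count and 1 was tested without passing, and their sum was 9.13 to 14.4 CPM in wild type and 6.73 and 8.02 after ablation.

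**Figure D3:**
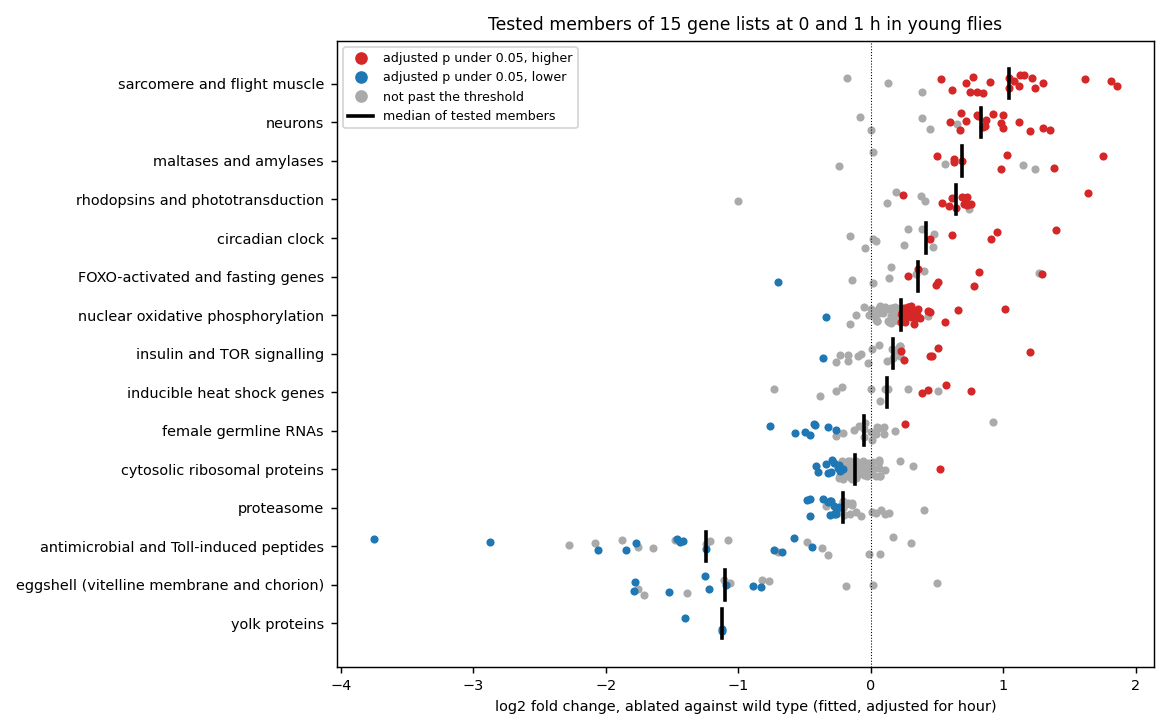
Log2 fold change, ablated against wild type and adjusted for hour (horizontal axis), of the tested members of 15 gene lists (vertical axis), 1 point per gene with a random vertical offset; black bars are list medians. Red and blue points passed the threshold as higher and lower: muscle, neuron and phototransduction genes lie to the right with medians of 1.04, 0.83 and 0.64, and yolk, eggshell and immune peptide genes to the left with medians of -1.12, -1.10 and -1.24.

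Genes of muscle were higher in ablated flies. Of 23 tested sarcomere and flight muscle genes, 20 rose and none fell, and the median was 1.04. Mhc, the muscle myosin heavy chain, had 193, 227, 214 and 195 CPM in wild type and 859 and 460 in ablated flies, a rise of 1.62 ± 0.20. The ablated 0 h library was the higher of the pair, and both exceeded every wild-type library. Flightin (fln, 1.86 ± 0.32), the kinase gene Strn-Mlck (1.81 ± 0.14), projectin (bt, 1.30 ± 0.11), TpnC4 (1.12 ± 0.09), a flight-muscle troponin C, and Mlc2 (1.08 ± 0.09) were other members that rose. The flight-muscle actin Act88F did not follow, with 210, 286, 167 and 203 CPM in wild type against 283 and 121 (-0.18 ± 0.25). Without the ablated 0 h library 15 muscle genes rose, and the median was 0.74.

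Of 22 neuronal genes, 17 rose and none fell, with a median of 0.83. Syt1, the synaptic vesicle calcium sensor, had 25.6, 25.4, 18.4 and 22.4 CPM in wild type and 69.0 and 48.7 in ablated flies, with no overlap (1.35 ± 0.12). Gad1 (1.30 ± 0.29), which makes the transmitter GABA, brp (1.12 ± 0.18), a scaffold of the active zone, elav (1.00 ± 0.16), the pan-neuronal RNA-binding protein, and the potassium channel gene Sh (0.92 ± 0.09) rose with it. The count was 10 without the ablated 0 h library. In the eye, 13 of 19 phototransduction genes rose and none fell, with a median of 0.64. Rh6, a rhodopsin of the inner photoreceptors, rose by 1.64 ± 0.20, the major rhodopsin ninaE by 0.70 ± 0.13 and Arr2, an arrestin that ends the light response, by 0.72 ± 0.08. Rh5, another rhodopsin of the inner photoreceptors, did not pass, with 4.45, 4.15, 4.56 and 3.01 CPM in wild type and 3.66 and 0.784 after ablation, and without the ablated 0 h library 7 genes of this list rose and 1 fell.

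Levels in these libraries are shares of whole-body RNA, to which all tissues contribute. The summed level of the 23 muscle genes in the ablated libraries was 1.83 times the wild-type mean, that of the 22 neuron genes 1.70 times and that of the 20 phototransduction genes was 1.52 times. Ovarian and yolk sums moved the other way in the same libraries. The part of tissue proportions in the changes of single genes was not tested.

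Nuclear oxidative phosphorylation genes and proteasome genes moved in opposite directions. Smaller shares of ribosomal genes and of transcripts of the mitochondrial genome were called than the 27.9% over all genes. Of 65 tested nuclear genes of oxidative phosphorylation, 29 rose and 1 fell, with a median of 0.23. They included the ATP synthase subunit gene ATPsynD (0.45 ± 0.08) and SdhC (0.43 ± 0.08), of succinate dehydrogenase. Without the ablated 0 h library 3 rose, and with total-count scaling 10 did. Proteasome genes fell in 13 of 32 cases and rose in none (median -0.21), among them Prosbeta1 (-0.48 ± 0.08), although 4 did so without that library. Of 85 cytosolic ribosomal protein genes, 13 fell and 1 rose (median -0.12), among them RpL39 (-0.40 ± 0.08), and 29 fell with total-count scaling. Over all genes tested, 13.3% fell and 14.6% rose. Among 35 transcripts of the mitochondrial genome, 6 rose and 1 fell, against 0 and 3 without the ablated 0 h library and 17 and 1 without the ablated 1 h library. mt:CoI, a cytochrome oxidase subunit, had 5548, 5228, 6578 and 7292 CPM in wild type and 8379 and 7871 after ablation (0.42 ± 0.10).

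Sugar-digesting enzymes of the gut were higher in ablated flies. Of 13 maltase and amylase genes, 8 rose and none fell, and the median was 0.69. Mal-A7, a maltase gene (FBgn0033296, chromosome 2R, 8468646 to 8471663 in dm6), had 19.4, 19.4, 15.3 and 17.8 CPM in wild type. It had 73.6 and 49.3 CPM in ablated flies, more than any wild-type library, and rose by 1.75 ± 0.12. Mal-B1 (1.38 ± 0.16), Mal-A4 (1.03 ± 0.19) and Mal-A6 (0.98 ± 0.11) followed, as did the amylase genes Amy-d (0.63 ± 0.14) and Amy-p (0.50 ± 0.10), which are near-identical copies and share reads. Without the ablated 0 h library 3 members rose. Trypsin and Jonah proteases, which digest protein, did not share a direction, with 6 higher and 5 lower of 25. Jon65Aii rose from 2.12, 3.28, 3.57 and 3.67 CPM to 26.2 and 22.1 (2.95 ± 0.22), while its neighbour in name Jon65Ai fell (-1.23 ± 0.13). betaTry (0.59 ± 0.08) and alphaTry (0.58 ± 0.11) rose and deltaTry fell (-1.74 ± 0.59). The median was 0.20, and the counts became 2 higher and 3 lower without the ablated 0 h library and 9 and 1 without the ablated 1 h library. Members of this family are similar in sequence, so the values of single copies are uncertain. Lysozyme genes also diverged, LysE rising by 2.24 ± 0.18 and LysX falling by 4.85 ± 1.04 on the log2 scale. LysE kept its call in all 17 alternative fits, while LysX lost it in 5, limma-voom among them.

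Metabolic genes gave a mixed picture. For glycolysis, 3 of 14 tested genes rose and none fell (median 0.09), namely Ald1 (0.88 ± 0.11), Hex-A (0.42 ± 0.07) and Gapdh1 (0.30 ± 0.09). Hex-A, a hexokinase, had 402, 413, 410 and 408 CPM in wild type and 543 and 548 after ablation, with the ablated libraries above all of them. Of 23 lipid genes, 5 rose and 3 fell (median 0.14). The fatty acid synthase genes FASN3 (1.38 ± 0.15) and FASN2 (0.71 ± 0.12) were higher. So were SREBP (0.58 ± 0.11), a regulator of lipid synthesis, and the desaturase gene Desat1 (0.31 ± 0.08). Genes of fatty acid breakdown, whd (-0.58 ± 0.19), the carnitine palmitoyltransferase, Mtp (-0.34 ± 0.12) and bgm (-0.33 ± 0.08), were lower. In sugar storage and transport, the trehalose transporter Tret1-1 (0.55 ± 0.09) and trehalase (Treh, 0.33 ± 0.10) rose and Pgm1 fell (-0.46 ± 0.09), of 11 tested (median 0.02). Of the lipid genes, 2 rose and 1 fell when the ablated 0 h library was left out, and 2 glycolysis genes rose.

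Immune effector genes were lower in ablated flies. Of 30 tested antimicrobial and Toll-induced peptide genes, 13 fell and none rose, and the median was -1.24. BomBc3, a secreted bomanin peptide induced by the Toll pathway (FBgn0040582, chromosome 3R, 22087075 to 22088501 in dm6), had 109, 122, 62.9 and 71.8 CPM in wild type. It had 28.1 and 15.9 CPM after ablation, below all of them, and fell by 2.06 ± 0.11 on the log2 scale (adjusted p = 2.23e-08, edgeR). The level went down from 0 h to 1 h in both genotypes. Metchnikowin (Mtk) stood at 394, 268, 183 and 98.6 CPM in wild type and at 36.1 and 24.5 in ablated flies (-2.87 ± 0.47). The daisho peptides Dso1 (-1.85 ± 0.32) and Dso2 (-1.42 ± 0.20) and the bomanins BomS5 (-1.77 ± 0.22), BomS2 (-1.44 ± 0.23) and BomS3 (-1.24 ± 0.21) were lower too, and bomanin copies are alike enough in sequence to share reads. Mtk did not pass without a term for hour, nor did Dso1 with wild-type climbers alone. The list median was -1.08 without the ablated 0 h library and -1.60 without the ablated 1 h library.

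Drosomycin (Drs), another classical Toll target, did not pass. It had 485, 391, 246 and 232 CPM in wild type and 372 and 276 after ablation, inside the wild-type range (-0.01 ± 0.11). Peptides of the Imd pathway, such as DptA (-2.28 ± 1.00) and DptB (-1.76 ± 0.74), did not pass. The wild-type 1 h non-climbers had 1.78 CPM of DptA against 11.5, 12.5 and 14.1 in the other wild-type libraries. SPH93, a serine protease homologue, had 38.4, 13.6, 9.22 and 10.7 CPM in wild type and 0.733 and 0.603 after ablation (-4.75 ± 0.66), but did not pass with limma-voom. Of blood-cell genes, 3 of 15 rose and 1 fell (median 0.16). PPO2, a prophenoloxidase of crystal cells, fell from 14.1 to 16.0 CPM to 7.36 and 6.21 (-1.15 ± 0.19), while lz, a transcription factor of the same cells, rose (1.96 ± 0.56). In fits without either ablated library no blood-cell gene rose. None of 4 tested Turandot stress peptides passed (median 1.43), with TotA at 57.0, 31.1, 212 and 52.8 CPM in wild type and 226 and 209 after ablation, so that 1 wild-type library was as high as the ablated ones. Of 10 peptidoglycan recognition genes (median 0.07), PGRP-SC1a rose (2.96 ± 0.77) and PGRP-LE fell (-0.31 ± 0.11), and neither passed when the ablated 0 h library was left out.

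**Figure D4:**
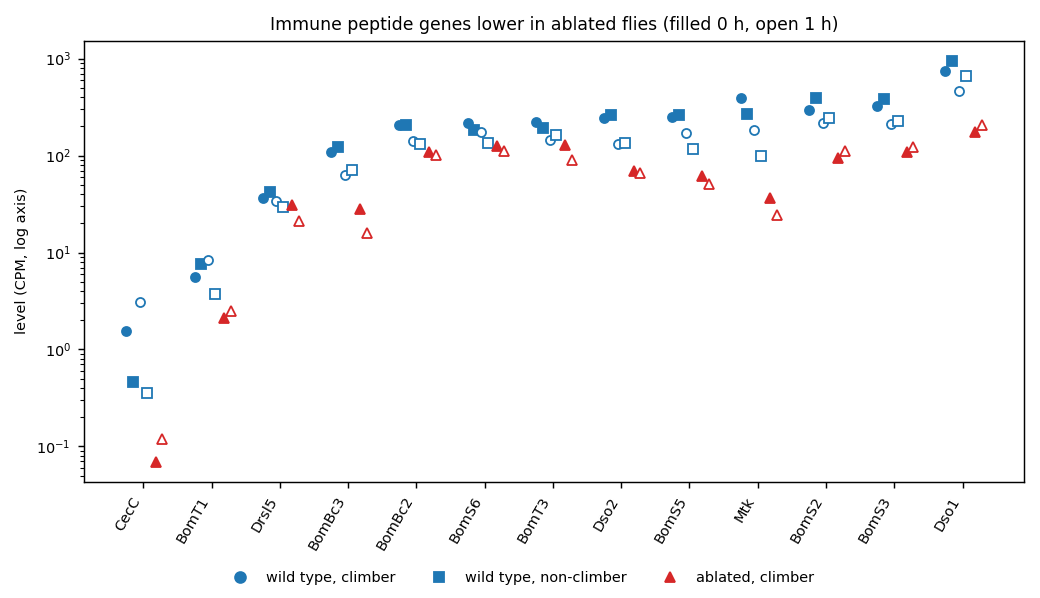
Level in CPM (vertical axis, log scale) of the 13 antimicrobial and Toll-induced peptide genes that fell, ordered by wild-type mean, with 1 point per library: blue circles are wild-type climbers, blue squares wild-type non-climbers and red triangles ablated climbers, filled at 0 h and open at 1 h. Mtk, BomBc3 and Dso1 show the ablated libraries far below wild type, while Drsl5 and BomS6 show small gaps.

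The inducible heat shock genes had a summed level of 18200 to 20600 CPM in wild type and 25400 and 19300 in ablated flies. Of 14 tested, 4 rose and none fell, with a median of 0.12, a share of calls close to that over all genes. Hsp23, a small heat shock protein, had 3014, 2649, 3103 and 2819 CPM in wild type and 5819 and 4051 in ablated flies (0.76 ± 0.12). The co-chaperone stv (0.43 ± 0.14), the small heat shock genes l(2)efl (0.39 ± 0.13) and Hsp67Ba (0.57 ± 0.21) also rose. The l(2)efl call was lost in 9 of 17 alternative fits and the stv call in 6. With total-count scaling 2 of the list rose and 1 fell, and without the ablated 0 h library the median was -0.06 with 1 member higher. Hsp83 (0.07 ± 0.08), Hsp26 (0.11 ± 0.08), Hsp68 (0.13 ± 0.13) and DnaJ-1 (-0.22 ± 0.09) did not pass. Of the Hsp70 copies, which share reads, Hsp70Ab had 367, 734, 351 and 373 CPM in wild type and 536 and 541 after ablation, an overlap with the wild-type 0 h non-climbers. Hsp22 and Hsp70Bbb had no count.

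Constitutive chaperones leaned downward, with 9 of 22 lower and 3 higher (median -0.11). Subunits of the CCT folding ring were lower, among them CCT7 (-0.41 ± 0.08), CCT5 (-0.35 ± 0.09) and CCT3 (-0.31 ± 0.08), while the kinase co-chaperone Cdc37 (0.94 ± 0.11) and the mitochondrial Trap1 (0.49 ± 0.10) rose. Without the ablated 0 h library 1 fell and 1 rose. Of 20 endoplasmic reticulum folding genes, 5 fell and 1 rose (median -0.19), the latter being Ire1 (0.83 ± 0.23), a sensor of misfolded protein. Among stress and damage transcription factors and their targets, 7 of 16 rose and none fell (median 0.40). crc, the fly ATF4, had 10.8, 12.6, 8.24 and 11.6 CPM in wild type and 35.5 and 22.3 after ablation (1.39 ± 0.18), and Xrp1 rose by 0.57 ± 0.08. Autophagy genes split, of 19 tested (median -0.13). Atg2 (0.65 ± 0.13), Atg1 (0.35 ± 0.11) and Atg8a were higher, and Atg5 (-0.61 ± 0.18) and Atg18a (-0.34 ± 0.12) lower. The Atg1 call was lost in 9 of 17 alternative fits. With the ablated 0 h library left out, 4 stress factors and 1 autophagy gene rose, and 2 endoplasmic reticulum genes fell.

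Single detoxification genes held some of the sharpest differences. Of 70 tested P450 genes, 17 rose and 3 fell, with a median of 0.45, a share of calls close to that over all genes. Cyp6g1, a P450 known for insecticide resistance, had 2.33, 1.18, 0.934 and 1.17 CPM in wild type and 24.3 and 26.1 in ablated flies (4.18 ± 0.26). Cyp12d1-d had no count in the 4 wild-type libraries and 729 counts in the ablated pair. Against a floor of 3 counts over the wild-type libraries it was at least 412-fold higher. It is a near-identical copy of Cyp12d1-p, and the number of copies is known to vary between fly strains. Cyp18a1, which inactivates the moulting hormone ecdysone, rose by 1.08 ± 0.15. Without the ablated 0 h library 6 P450 genes rose and none fell. Among 33 glutathione transferases, 10 rose and 3 fell (median 0.21), with GstE7 at 106, 87.5, 109 and 111 CPM in wild type and 229 and 208 in ablated flies (1.08 ± 0.10), and 4 rose without that library. GstD2 showed a rise with time in both genotypes, from 4.71 and 3.13 to 12.5 and 12.9 CPM in wild type and from 9.04 to 42.1 in ablated flies (1.49 ± 0.19).

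Of 21 antioxidant and metal-binding genes, 5 rose and 4 fell (median 0.15). The metallothionein gene MtnA (0.81 ± 0.11) and catalase (Cat, 0.62 ± 0.10) were higher, and extracellular superoxide dismutase (Sod3, -0.59 ± 0.09) and the ferritin light chain Fer2LCH (-0.44 ± 0.08) were lower. Among 14 clock genes, 5 rose and none fell (median 0.42). Pdp1 had 205, 205, 202 and 202 CPM in wild type and 431 and 358 after ablation (0.95 ± 0.08), and cwo, a repressor of the clock, rose by 0.91 ± 0.09. The core clock genes per (0.02 ± 0.71), tim (-0.04 ± 0.22) and Clk (0.48 ± 0.21) did not pass. Of 18 genes of juvenile hormone and ecdysone, 4 rose and none fell (median 0.30), among them gce, a juvenile hormone receptor (1.06 ± 0.12), and Eip75B (0.35 ± 0.08). For small nucleolar and nuclear RNAs, 13 of 86 rose and 1 fell (median 0.62), a smaller share of calls than over all genes. A kit that primes on poly(A) tails captures them only in part. With the ablated 0 h library left out, 2 clock genes, 2 hormone genes, 2 small RNAs and 3 antioxidant genes rose.

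Cell death genes were examined as well. Of 10 tested, 2 rose and 3 fell (median 0.03), and 1 fell and none rose when the ablated 0 h library was left out. The inhibitor Diap1 (0.60 ± 0.11) and the apoptosome gene Dark (1.74 ± 0.61) rose, and Dronc (-0.67 ± 0.12), Drice (-0.37 ± 0.12), which are caspases, and Diap2 (-0.35 ± 0.10) fell. The pro-death gene rpr had 0.207, 0.308, 0.220 and 0.662 CPM in wild type and 1.47 and 1.21 in ablated flies. The ablated values lay above all of these, but the gene did not pass (adjusted p = 0.0596, edgeR). The corresponding gene hid (0.33 ± 0.13) and the eye pigment gene w (0.85 ± 0.55), a common transgene marker, did not pass either. Of the 4 pigment transporters used as such markers, 2 were tested and none passed (median 0.61).

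Besides the list members Cyp6g1 and Jon65Aii, single genes outside the lists were among the largest rises above an average of 3 log2 CPM. The noncoding RNA lncRNA:CR40469 (FBgn0058469, chromosome X, 122493 to 122706 in dm6) had 3.00, 5.59, 8.07 and 4.64 CPM in wild type. It had 8141 and 7668 CPM in ablated flies, which placed it among the abundant RNAs of these libraries (10.56 ± 0.40). fz, the receptor of Wnt and planar polarity signals (FBgn0001085, chromosome 3L, 14274343 to 14368639), had 9.22, 8.82, 9.11 and 10.3 CPM in wild type and 96.7 and 101 after ablation (3.40 ± 0.11). Both genes were about as high at 1 h as at 0 h. The cuticle gene Acp65Aa rose as well (4.03 ± 0.74), but with 51.6 CPM at 0 h and 8.62 at 1 h against 0.974 to 1.71 in wild type. CG9676 (2.76 ± 0.33), CG8329 (2.63 ± 0.18), Ser6 (2.47 ± 0.23), CG3088 (2.24 ± 0.18) and CG8343 (2.15 ± 0.14) were other large rises. Besides immune and eggshell genes, the large falls included CG7298 (-1.98 ± 0.32), the mucin gene Mur11Da (-1.91 ± 0.26) and CG33346 (-1.77 ± 0.29).

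Some of these differences held across the whole series. Of the 1504 genes that rose, 57 were higher in all 14 ablated libraries than in any of the 26 wild-type libraries, and 25 of the 1367 that fell were lower throughout. Over all 10294 genes tested the corresponding numbers were 64 and 30. The 40 libraries include the 6 that gave the calls, so these counts are no separate check of them. lncRNA:CR40469 ranged from 2810 to 9050 CPM in ablated libraries of the series and from 3.21 to 14.2 in wild-type ones. Cyp6g1 ranged from 26.9 to 84.5 against 0.981 to 6.26, and Cyp12d1-d from 5.22 to 21.4 against 0 in all wild-type libraries. In contrast fz overlapped, at 44.9 to 111 against 9.43 to 65.7. These ranges use TMM factors over all 40 libraries.

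Whether the change differed between 0 h and 1 h was tested as an interaction, with 2 residual degrees of freedom. Of 10957 genes, 20 passed (0.183%), 6 with a higher and 14 with a lower ablation effect at 1 h. CG7203 had 14.1, 16.8, 17.2 and 23.2 CPM in wild type and 370 at 0 h but 78.5 at 1 h in ablated flies (-2.62 ± 0.23 for the difference). Acp65Aa (-2.84 ± 0.46) and Mhc (-0.85 ± 0.16) also exceeded wild type less at 1 h than at 0 h. Among the 20 were the mitochondrial transcripts mt:ND5 (-1.31 ± 0.17), mt:Cyt-b (-0.83 ± 0.12), mt:ND3 (-1.42 ± 0.22), mt:ATPase8, mt:ND2 and mt:ND6, all with a lower ablation effect at 1 h than at 0 h. For mt:ATPase8 the ablated library had 300 CPM at 0 h, above 191 and 170 in wild type, and 306 at 1 h, below 405 and 351. In wild type mt:ND5 went from 266 and 317 CPM at 0 h to 644 and 554 at 1 h, whereas the ablated libraries had 886 and then 734. The immune peptides BomS1 (1.32 ± 0.21), Dso2 (0.87 ± 0.16) and BomS3 (0.85 ± 0.17) had a deficit that was smaller at 1 h. Each value of this test rests on 1 ablated library per hour.

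The same contrast can be set beside that of the later hours (2 to 8 h, 4 ablated and 8 wild-type young libraries) and of old flies at 0 and 1 h (2 ablated and 4 wild-type). In those ablated libraries the noncoding component lay above the wild-type range, in which the early young ablated libraries lay, and the part of that difference was not tested. At the later hours 4246 of 10831 genes passed (39.2%), and in old flies 3398 of 10523 (32.3%). Of the 1504 genes that rose early in young flies, 507 rose at the later hours, which is 33.7% of the early and 24.3% of the late list, and 472 fell. Over all genes tested at the later hours, 19.2% rose and 20% fell. Of the 1367 that fell early, 292 fell later (21.4% of the early and 13.5% of the late list) and 77 rose. In old flies 190 of the 1504 rose (12.6% and 16.1%) and 675 fell, and 155 of the 1367 fell (11.3% and 6.98%) and 191 rose. Over all genes tested in old flies, 11.2% rose and 21.1% fell.

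Some gut and detoxification genes rose in the other comparisons as well. Mal-A7 rose by 2.74 ± 0.27 at the later hours and by 3.18 ± 0.26 in old flies, LysE by 4.51 and 3.48 and Cyp6g1 by 4.77 and 4.10. Arr2 rose by 0.99 and 0.80. InR and Ilp6 stood differently. InR fell at the later hours (-1.74 ± 0.20) and in old flies (-2.94 ± 0.13), and so did Hex-A (-0.98 and -1.36). Ilp6 stood at -0.50 later, which did not pass, and fell in old flies (-1.45). Yp1, at -0.09 and 0.47, and Vm32E, at -0.46 and -0.36, passed in neither. Of the immune peptides, BomBc3 (-0.00), BomS5 (-0.10), Dso1 (0.24) and Mtk (-1.27) did not pass at the later hours. In old flies BomBc3 fell (-1.74), while BomS5 (-1.69), Dso1 (-1.05) and Mtk (-0.84) did not pass. Syt1 did not pass later (-0.08) and fell in old flies (-1.57). The muscle gene bt fell in both (-0.44 and -2.43), whereas Mlc2 (1.12) and TpnC4 (0.78) rose later and did not pass in old flies. Tests of these differences gave 2637 genes of 11106 (23.7%) between early and later hours in young flies and 4533 of 10903 (41.6%) between young and old flies at 0 and 1 h. For InR they gave -2.33 between stages and -3.35 between ages, for Ilp6 -1.88 and -2.65, and for Yp1 1.69 between ages.

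**Figure D5:**
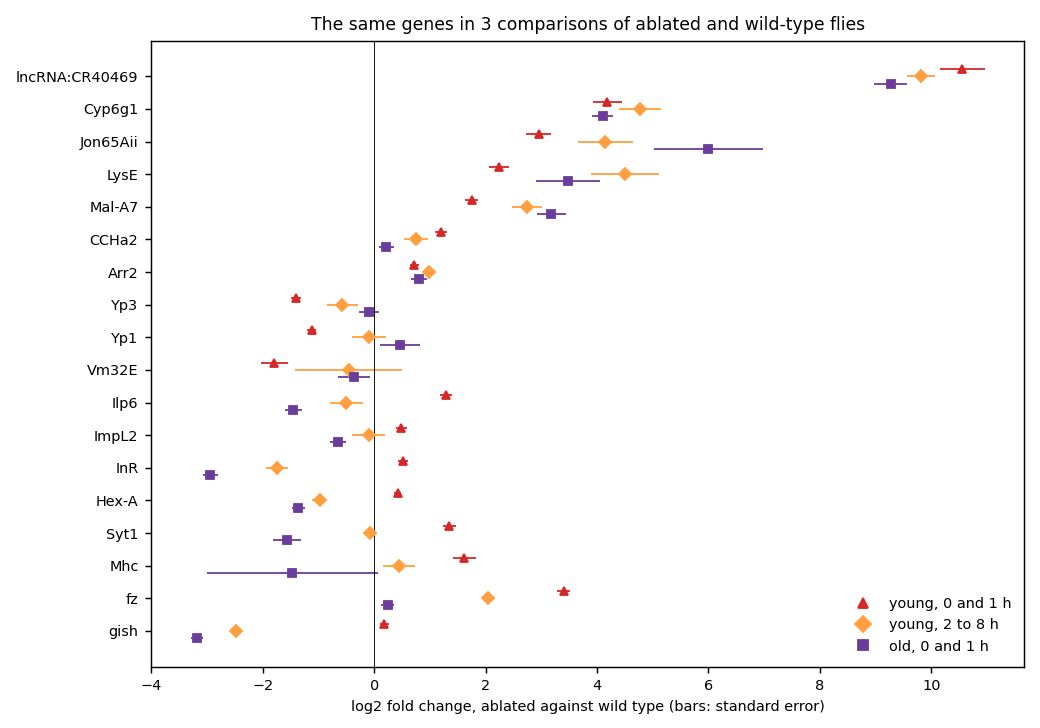
Log2 fold change, ablated against wild type, with standard error (horizontal axis), of 18 genes in 3 comparisons: red triangles are young flies at 0 and 1 h, orange diamonds young flies at 2 to 8 h and purple squares old flies at 0 and 1 h. lncRNA:CR40469, Cyp6g1, LysE and Mal-A7 lie to the right in all 3, while InR lies at 0.51 in young flies at 0 and 1 h and at -1.74 and -2.94 in the other comparisons.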

How the data were processed

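Whole-fly RNA was extracted with Trizol and libraries were made with a Lexogen Quant 3' kit, per the labels' protocols; only read 1 was used, per the labels. The table of raw counts deposited (17609 genes, 40 libraries) was made by the authors from reads aligned with STAR 2.7.5a to dm6 per the submitters' processing notes; the counting tool, annotation, strand setting and use of molecular identifiers are not given in the sources used here. Without strand, reads of overlapping and antisense genes cannot be told apart. Gene positions came from the Ensembl annotation of the same build, and 17596 genes had a symbol.

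Tests used edgeR 4.0.16 under R 4.3.3 (TMM factors, filterByExpr, robust quasi-likelihood, terms for hour and genotype, threshold 0.05). Later-hour and old-fly contrasts used their own libraries, and interactions the pooled ones. Totals per library were 16394212 to 30658970 counts; precision at low counts is that of the counts, and floors are 3 counts. The 38 gene lists and the comparisons were chosen with earlier results of these data known. After values were seen, dhd was moved to the female germline list and Nlg1, Cp110, Cp190, Cyp1, Cyp33 and Cyp40 were dropped from lists. Named genes were the 12 largest rises and falls among called genes above an average of 3 log2 CPM whose ablated library lay beyond both wild-type ones at each hour, up to 3 members per list, and the leading interactions; the text prints a subset, and other list members are named beside them, chosen after their values were seen. Alternatives were DESeq2 1.42.0, limma-voom (limma 3.58.1), RLE and total-count scaling, other filters, other terms, pooled spreads and leaving out each library. The fit was tested on simulated data. Figures used matplotlib 3.10.9. No 2 libraries were identical.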

Additional observations from a re-analysis of the deposited data

Results flagged for a closer look

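Each value here is a difference between groups that passed an interaction test (edgeR quasi-likelihood, Benjamini-Hochberg), given as the effect of ablation in the second group minus that in the first, on the log2 scale.

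Between young and old flies at 0 and 1 h the effect of ablation differed in 4533 genes. The 5 with the smallest p among them were gish (-3.26), pAbp (-2.85), scyl (-3.01), mamo (-3.14) and Unr (-3.02), whose effects were more negative in old flies. The insulin-axis and hormone genes InR (-3.35), Ilp6 (-2.65), ImpL2 (-1.05) and CCHa2 (-0.88) differed in the same direction, as did fz (-3.07) and Hex-A (-1.68). The yolk genes Yp1 (1.69) and Yp3 (1.40) and the maltase gene Mal-A7 (1.52) differed in the opposite direction.

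Between 0 to 1 h and the later hours in young flies it differed in 2637 genes. The leading ones were gish (-2.74), pAbp (-1.94), Set1 (-2.85), CG7378 (-2.30) and Cam (-2.41), and InR (-2.33), Ilp6 (-1.88), fz (-1.43) and Hex-A (-1.47) were also among them. In both of these tests the ablated libraries of the second group lay apart from the 6 early young libraries in their noncoding transcripts, and the part of that difference was not tested.

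Between 0 h and 1 h in young flies it differed in 20 genes, led by CG7203 (-2.62), mt:ND5 (-1.31), mt:Cyt-b (-0.83), mt:ND3 (-1.42) and Acp65Aa (-2.84).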

How the results depend on the processing

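No paired analysis was possible because the labels give the libraries no replicate numbers. The count of 2871 genes stayed within 1.5 times with RLE factors (2857), total-count scaling (2825, added after the data were seen, with 44.2% higher against 52.4%), DESeq2 (2706), limma-voom (3201), no count filter (3265), a stricter filter (2678) and no term for hour (2679). It was 1838 with wild-type climbers only, 1779 with behaviour as a term, 1775 with the spread of the 18 young libraries (69.4% higher) and 1727 with that of all 40; the cause was not tested. Leaving out 1 library at a time gave 906 to 2675 genes, the lowest without the ablated 0 h library, whose loss leaves 1 ablated library that is assumed to vary like the wild-type ones.

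In old flies 3398 genes became 1984 to 3161 when single libraries were left out, the lowest without the ablated 1 h library and 2088 without the ablated 0 h library. DESeq2 gave 3886 there, 4584 at the later hours, 3105 between stages, 4291 between ages and 26 between hours. Of 123 named genes that passed, 58 did so in all 17 alternatives and 65 failed at least once, and none changed sign. The leave-one-out fits were not run for the later-hour and interaction tests, except without the library labelled ablated young 6 h (3567 and 2618 genes).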
